A study of Mus musculus with 1 sample.

Results

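In marrow sorted as lineage-negative and Kit-positive from control mice, 119 cells carried at least 2 unique molecular identifiers (UMIs, each 1 captured transcript) of Dntt and no UMI of Ebf1, Rag1, Vpreb3, Cox6a2, Upb1 or Siglech. These Dntt-positive progenitors made up 1.56% (interval 1.29 to 1.86) of the 7645 cells that passed the study's cell filter. The members were chosen on these 7 transcript counts, so the counts describe the choice and are no finding. Each gene was compared with 947 contrast cells that had at least 1 UMI of Flt3 and of Cd34 and none of Dntt. Of these, 211 (22.3%) held a UMI of the 6 genes that the members lack. A level is the UMIs of a gene summed over a set of cells, scaled to 1000000 UMIs of that set (CPM), and a ratio divides the level in the members by that in the contrast cells.

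Dntt encodes terminal deoxynucleotidyl transferase, which adds bases without a template to the ends that are joined when antigen receptor genes are assembled. In bone marrow its transcript appears before that assembly begins, in multipotent progenitors that are primed for lymphoid fates and carry Flt3, the receptor for Flt3 ligand. Ebf1, Rag1 and Vpreb3 mark the steps that follow on the B-cell path, while Cox6a2, Upb1 and Siglech are transcripts of plasmacytoid dendritic cells.

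The library came from C57BL/6 mice of the genotype CD45.2(+) Brd9fl/fl with no Cre deletion, so both floxed alleles of Brd9, a subunit of the non-canonical BAF chromatin remodelling complex, were intact. All these cells had been exposed to pIpC, a double-stranded RNA mimic that induces interferon, at 20 mg/kg in 3 doses from 4 weeks after birth, and were taken 8 weeks later. The sample labels also name a CD45.1(+) CD45.2(-) recipient, which points to a transplant, while the series text speaks of primary mice, and which applies was not settled. Only this library was used here, and the number of mice behind it is not given in the sources used here, so there are no replicates, no test was run and no value carries an error between animals.

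Depth differed between the sets. The members had 5871 to 42818 UMIs per cell with a median of 15218, against a median of 20564 in the contrast cells, and all 119 could be thinned to 5000 UMIs for comparisons of shares of cells. Intervals are exact 95% intervals (Poisson for levels, conditional binomial for ratios, Clopper-Pearson for shares) and cover counting error only. Erythroid cells with at least 2 UMIs of both Klf1 and Car1 (1292 cells, median 32584 UMIs) served as a reference for free RNA, since they should lack lymphoid transcripts. In that reference 12 cells (0.929%) had at least 2 Dntt UMIs, and 4 of them were members. The share of doublet calls was 5.04% in the members (6 cells), 6.76% in the contrast cells and 3.51% in all cells kept, and the median mitochondrial share of UMIs was 4.11% in members and 3.43% in contrast cells. The part of depth and mitochondrial share in the results was not tested beyond the thinned cells and a stricter cell filter.

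The members held between 2 and 78 Dntt UMIs, with quartiles of 2, 5 and 12, and 24.4% of the 4681 Dntt UMIs of all cells kept. They were 43.3% of the 275 cells with at least 2 Dntt UMIs. The other cells at this threshold were 55 cells with a UMI of Ebf1, Rag1 or Vpreb3, called the B-lineage set here, and 101 cells with a UMI of Cox6a2, Upb1 or Siglech and none of the former, called the plasmacytoid set. At the edge of the rule, the 34 members with exactly 2 Dntt UMIs had Satb1 at 131 CPM, Flt3 at 144 CPM and Tespa1 at 127 CPM. The 122 cells just outside it, with 1 Dntt UMI and the 6 genes at 0, had Satb1 at 58.4 CPM, Flt3 at 60.3 CPM and Tespa1 at 64.8 CPM, close to the contrast cells for Satb1 (57.2 CPM).

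The markers named for this population were present in most members. Flt3 had a UMI in 111 of the 119 members, Cd34 in 117, Satb1 in 105 and Tespa1 in 89, and 71 members had all 4 markers Dntt, Flt3, Satb1 and Tespa1. Kit, the receptor used for the sort, was detected in 91 members. After thinning, Satb1 was seen in 60.5% of members, 23.9% of contrast cells and 2.09% of the erythroid reference, and Tespa1 in 36.1%, 21.8% and 0.929%. The absence of B-lineage genes held for the genes of the rule, which fixed it, but not for every B-lineage transcript. Ighm, whose unrearranged locus is transcribed early, was detected in 107 members and Cd79b, a signalling chain of the B-cell receptor, in 47. Vpreb1, a surrogate light chain, was detected in 4 members and Bank1, a B-cell adaptor, in 5.

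Promoter sequences are shown for the gene that defines the members and for a pair of genes named for a high ratio whose windows held motif matches, Il12a, which encodes a subunit of interleukin 12, and Dusp2, a phosphatase that switches off MAP kinases. They are the 250 bases before the annotated start, 5′ to 3′ on the gene's strand, from RefSeq, and capitals mark matches to a searched motif.
Dntt (GRCm38.p6 chr19:41029025-41029274, plus strand): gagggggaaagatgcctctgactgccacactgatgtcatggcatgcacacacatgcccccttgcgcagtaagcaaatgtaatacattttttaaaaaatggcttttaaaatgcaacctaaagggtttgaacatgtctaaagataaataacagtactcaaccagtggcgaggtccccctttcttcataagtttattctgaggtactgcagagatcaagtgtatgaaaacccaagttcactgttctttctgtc
Il12a (GRCm38.p6 chr3:68690394-68690643, plus strand): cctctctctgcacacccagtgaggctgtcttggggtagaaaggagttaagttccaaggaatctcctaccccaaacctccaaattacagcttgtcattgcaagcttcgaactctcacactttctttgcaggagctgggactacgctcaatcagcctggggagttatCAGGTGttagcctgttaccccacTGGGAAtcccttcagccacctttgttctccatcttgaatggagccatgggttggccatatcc
Dusp2 (GRCm38.p6 chr2:127335909-127336158, plus strand): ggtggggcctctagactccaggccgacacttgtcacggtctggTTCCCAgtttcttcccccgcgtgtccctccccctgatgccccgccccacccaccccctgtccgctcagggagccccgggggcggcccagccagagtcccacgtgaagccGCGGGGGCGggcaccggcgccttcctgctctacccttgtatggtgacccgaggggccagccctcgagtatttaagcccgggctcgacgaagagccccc
Both strands were searched for an AP-1 site (TGANTCA), a CRE core (TGACGT), an Ikaros core (TGGGAA), an E-box (CAGGTG), an EGR site (GCGGGGGCG) and a TATA box (TATAAA), none of which overlapped in these matches. The Dntt window held none of these letters. The Il12a window held the E-box 85 to 80 bases and the Ikaros core 62 to 57 bases before the start. The Dusp2 window held the Ikaros core on the other strand 207 to 202 bases and the EGR site 98 to 90 bases before the start. Of 32851 mouse promoters of this length, 21.6% held the Ikaros core, 17.2% the E-box and 2.57% the EGR site, 6.75% the AP-1 site, 6.47% the CRE core and 12.4% the TATA box. Among the 11 genes looked up that had an entry, Satb1, Flt3, Ccl3, Wfdc17 and Shisa8 held none of the 6 motifs, and a match is a description of letters only.

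Over all genes with at least 100 UMIs in both sets together, 237 of 9591 (2.47%) had a ratio of at least 2 and 299 (3.12%) a ratio of at most 0.5. These shares are the background for the list counts of members against contrast cells below. The median ratio over all genes was 1.02, with quartiles of 0.871 and 1.21. The sets were split on Dntt, Flt3 and Cd34, so these counts describe the members and support nothing by themselves. In a self-test on simulated Poisson counts of this size, without differences between cells, 100% of genes raised 4-fold and 99% of those lowered to 0.25 were placed correctly. Dntt itself stood at 570.1 CPM (538 to 604) in the members. Flt3, required of every contrast cell and of no member, was nonetheless higher in the members at 209.8 CPM (190.2 to 231) against 90.6 CPM (86.5 to 94.8).

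The 12 genes chosen for a high ratio, all with at least 100 UMIs over both sets, included chemokine genes. Ccl3, a chemokine that attracts leukocytes, stood at 244 CPM (223 to 266) in members and 50.1 CPM (47.1 to 53.3) in contrast cells, a ratio of 4.86 (4.36 to 5.42). Its neighbour Ccl4, a related chemokine, had a ratio of 3.79 (3.41 to 4.21), and Wfdc17, a small secreted protein with a WAP domain encoded beside them, one of 6.83 (5.71 to 8.17). The 3 genes lie on chromosome 11 between positions 83647844 and 83706268 (GRCm38). Per cell they were uneven: Ccl3 was absent from 53 members and reached 37 UMIs in the highest, which held 7.57% of the members' Ccl3 UMIs. After thinning, Ccl3 was seen in 42.9% of members, 16.8% of contrast cells and 1.62% of the erythroid reference, and Wfdc17 in 31.9%, 6.55% and 0.542%.

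Cd69, a membrane protein that appears early on activated lymphocytes and holds them in tissue by lowering the sphingosine phosphate receptor, stood at 456 CPM (426 to 486) against 95.5 CPM (91.3 to 99.9), a ratio of 4.77 (4.403 to 5.16), with a median of 3 UMIs per member and 36 in the highest. After thinning it was seen in 58.8% of members, 25.7% of contrast cells and 6.19% of the erythroid reference. Tbxa2r, the thromboxane A2 receptor, was at 35.9 CPM (28.1 to 45.2) against 5.47 CPM (4.503 to 6.59). Il1r1, the receptor for interleukin 1, chosen after its values were seen, was at 31.4 CPM (24.1 to 40.2) against 7.298 CPM (6.17 to 8.57). Shisa8, a membrane protein of the Shisa family, stood at 25.4 CPM (18.9 to 33.4) against 3.99 CPM (3.17 to 4.96), and Dusp2 at 283 CPM (260.2 to 307) against 86 CPM (82.01 to 90.1).

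**Figure D1:**
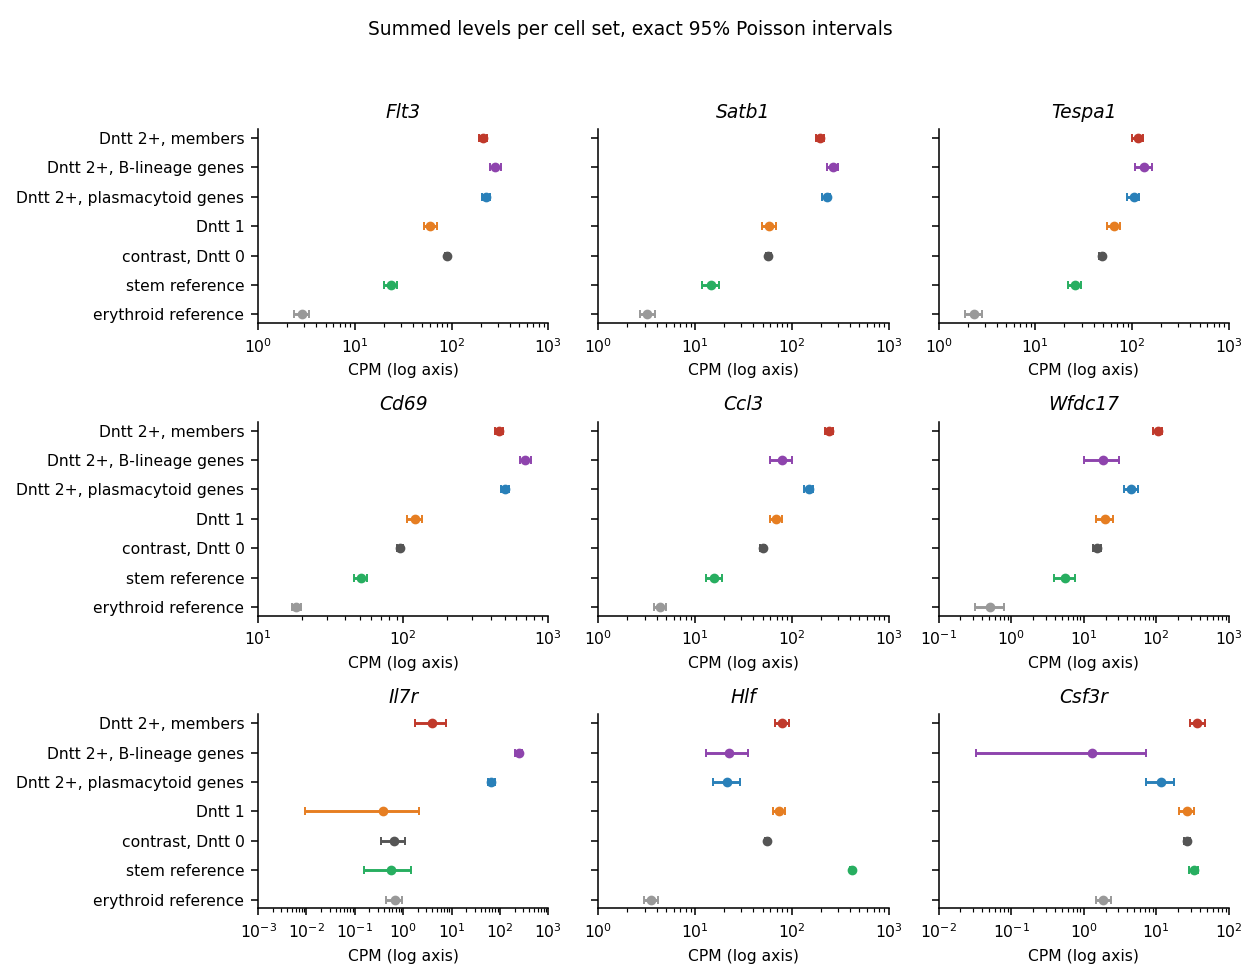
Summed level in CPM (log axis, its range set for each gene) of 9 genes in 7 sets of cells, with exact 95% Poisson intervals as bars. Ccl3 and Wfdc17 were highest in the members, Flt3, Satb1, Tespa1 and Cd69 were high in all 3 sets with at least 2 Dntt UMIs, and Il7r was low in the members and high in the B-lineage set.

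Tox, a nuclear factor of T-cell development, had the highest ratio of the 12 genes chosen for a high ratio, at 8.96 (6.12 to 13.1), from 27.4 CPM (20.6 to 35.7) against 3.06 CPM (2.34 to 3.92), and 1 member held 18.2% of its 55 UMIs. Gimap6, of a family of GTPases that support lymphocyte survival, stood at 87.2 CPM (74.8 to 101) against 20.8 CPM (18.8 to 22.8). The family members Gimap9, Gimap1 and Gimap5, chosen after their values were seen, had ratios of 3.12 (2.44 to 3.97), 2.42 (1.95 to 2.97) and 2.399 (1.59 to 3.53), while Gimap7 and Gimap8 had too few UMIs to be counted. Gimap1 and Gimap5 overlap another annotated gene on the strand, which makes their counts uncertain. H2-Ob, a chain of the protein that restrains peptide loading of class II molecules, was at 45.8 CPM (36.96 to 56.2) against 10.3 CPM (8.91 to 11.8). Il12a was at 91.7 CPM (78.9 to 106) against 24.1 CPM (22.02 to 26.4) and was seen after thinning in 34.5% of members, 9.72% of contrast cells and 1.32% of the erythroid reference.

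Among 18 counted genes of an early lymphoid list, 5 had a ratio of at least 2, 1 was at 0.5 or below, and the median was 1.81 against 1.02 over all genes. Satb1, a chromatin organiser needed for lymphoid priming of stem cells, stood at 197 CPM (178 to 217) against 57.2 CPM (53.95 to 60.6), a ratio of 3.44 (3.06 to 3.86). Tespa1, an adaptor of T-cell receptor signalling in the thymus, was at 115 CPM (100.3 to 130.4) against 48.5 CPM (45.5 to 51.6). Il2rg, the chain shared by the receptors for interleukins 2, 7 and others, was at 48.8 CPM (39.6 to 59.5) against 17.4 CPM (15.6 to 19.3), and Ets1, a transcription factor of lymphocytes, had a ratio of 3.56 (2.38 to 5.22). Myl10, a myosin light chain found in precursor lymphocytes, had a ratio of 5.21 (3.34 to 7.99).

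The other 12 counted genes of this list lay between 1.12 (Runx2) and 1.97 (Cd27). Sox4, a survival factor of lymphoid precursors, was at 624 CPM (590.3 to 659.9) against 344 CPM (336 to 352) and present in every member. Mef2c, which favours lymphoid over myeloid fate, was at 461 CPM (432 to 492) against 256 CPM (249 to 263). Cd27, a costimulatory receptor of early progenitors, had a ratio of 1.97 (1.73 to 2.23), Notch1, the receptor that drives T-cell fate, one of 1.86 (1.54 to 2.24), and Bcl11a, a repressor needed for B cells, one of 1.88 (1.67 to 2.11). Ikzf1, which encodes Ikaros, had a ratio of 1.42 (1.24 to 1.61) and Ighm one of 1.54 (1.403 to 1.69). Of 7 list genes under the count minimum, Lck, the kinase of the T-cell receptor, had 47 UMIs in 31 members against 36 in all contrast cells, and Lax1, an adaptor of lymphocyte signalling, 28 against 32. Ikzf3 was at 0.

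Transcripts of the next lymphoid steps were scarce. Il7r, the interleukin 7 receptor chain on which common lymphoid progenitors depend, had 8 UMIs in 6 of 119 members, 3.99 CPM (1.72 to 7.86) against 0.641 CPM (0.341 to 1.096), and a thinned share of 2.52% against 0.155% in the erythroid reference. Ly6d, which marks lymphoid progenitors that have entered the B-cell path, was the gene of the list with a low ratio at 0.214 (0.0853 to 0.445), and 10 contrast cells held 93.05% of its contrast UMIs. The ratio was 3.39 when contrast cells with a UMI of the 6 rule genes, 211 of 947, were left out. The direction for Ly6d therefore turned with the choice of contrast cells, and with the rule and levels taken on thinned cells the ratio was 3.06.

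For the machinery that assembles antigen receptors, 1 of 8 counted genes of recombination and end joining had a ratio of at least 2 and none was at 0.5 or below, with a median of 1.36. The gene was Xrcc5, which encodes the Ku80 subunit that binds broken ends, at 16.4 CPM (11.3 to 23.1) against 6.41 CPM (5.36 to 7.61). Its partner Xrcc6, Ku70, was at 77.2 CPM (65.6 to 90.4) against 41.3 CPM (38.6 to 44.2), and Prkdc, the kinase that Ku recruits, had a ratio of 1.23 (0.933 to 1.596). The related polymerases Poll and Polb had ratios of 1.33 (0.877 to 1.95) and 0.983 (0.7201 to 1.32). Rag2, the partner of Rag1 in the recombinase, had 9 UMIs in 5 members and 5 of them lay in 1 cell. The summed level of this list, with the rule genes left out, was 201 CPM in members, 136 CPM in contrast cells and 203 CPM in the erythroid reference, so that erythroid cells stood as high as the members.

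Most committed B-cell genes were not detected in the members, while a few genes of the B-cell, T-cell and innate lymphoid lists were. Of 10 B-lineage genes outside the rule, 7 were at 0 in the members, among them Pax5, Cd79a, Vpreb2, Igll1, Pou2af1 and Ms4a1, where 3 UMIs would give 1.495 CPM. The rule had left out cells with Ebf1, Rag1 or Vpreb3 UMIs, which fixes part of this. In the contrast cells the genes named here were at 0.3945 CPM or less, under that floor. Their absence therefore does not set the members apart from the contrast cells. Vpreb1 had 5 UMIs in 4 members, and Bank1 had 6 in 5 members against 1 in all contrast cells, a ratio of 60.6 (7.36 to 2789). Cd79b was the only B-lineage gene with enough UMIs, at 34.9 CPM (27.2 to 44.1) against 39.9 CPM (37.2 to 42.7). The 10 genes summed to 40.4 CPM in members, 43.7 CPM in contrast cells, 719 CPM in the B-lineage set and 5.75 CPM in the erythroid reference. Of the T and innate lymphoid list, 3 of 12 genes could be counted, with Tox higher, Id2, an inhibitor of E proteins, lower at 0.316 (0.212 to 0.454), and Zbtb16 between, and the median was 0.556. Cd3e, Cd3g and Il2rb were at 0, while all 16 Bcl11b UMIs, all 17 Trbc1 UMIs and 13 of 15 Trbc2 UMIs lay in the same cell, and 2 members held any of these 3 transcripts. The list summed to 85.7 CPM in members and 63.7 CPM in contrast cells. Without that 1 cell the members' sum was 52.1 CPM, so the order of the sums rested on it.

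**Figure D2:**
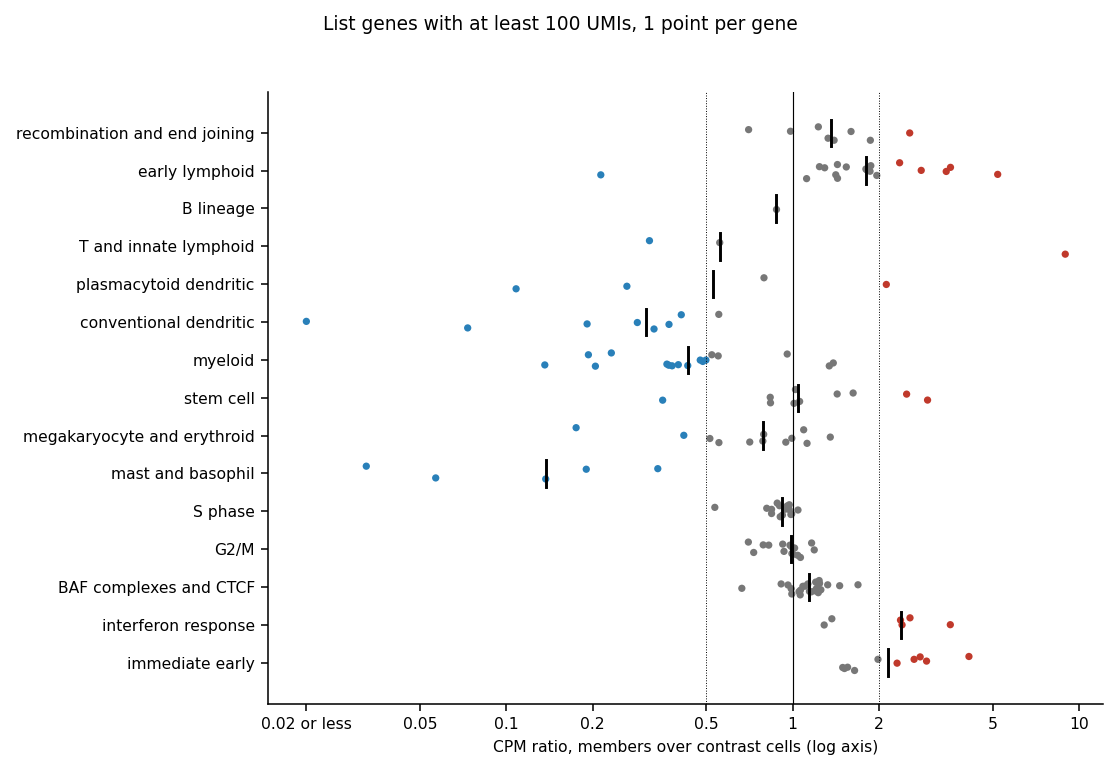
Ratio of the level in members over that in contrast cells (log axis) for each gene of 15 lists with at least 100 UMIs over both sets, 1 point per gene, red at 2 or more, blue at 0.5 or less, grey between, black bars at the list medians. The early lymphoid, interferon response and immediate early medians lay at 1.81, 2.397 and 2.15, and the mast and basophil median at 0.137.

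Conventional dendritic genes were mostly lower in the members, and plasmacytoid genes were divided. Of 4 counted plasmacytoid genes outside the rule, Tcf4, the E protein that directs plasmacytoid fate, was higher at 244 CPM (223 to 266) against 115 CPM (110.1 to 119.5), Cd7 and Cd300c had ratios of 0.264 (0.0536 to 0.79) and 0.108 (0.01299 to 0.396), and Bst2 lay between at 0.794 (0.704 to 0.893). Spib, a plasmacytoid transcription factor, and Klk1 were at 0. The median was 0.529, and the list summed to 432 CPM in members, 327 CPM in contrast cells and 642 CPM in the plasmacytoid set. The sum was thus higher in members than in contrast cells where the median ratio was below 1, since Tcf4 and Bst2 held most of the list's UMIs. Cd7 had 3 UMIs in the members, and its ratio was 2.58 against contrast cells without the 6 rule genes, the opposite direction. Of 8 counted conventional dendritic genes, 7 had a ratio of 0.5 or below and the median was 0.307, with Cst3, a protease inhibitor abundant in dendritic cells, at 481 CPM (452 to 513) against 1301 CPM (1286 to 1317) and Batf3 and Zbtb46, both defining factors, at 0 in the members. On thinned cells fewer of the list's genes were at 0.5 or below. Itgax changed its side of 1 against contrast cells without the 6 rule genes. The conventional dendritic list summed to 702 CPM in members and 2015 CPM in contrast cells. Per cell, its medians were closer, at 675 and 861 CPM. Its counted genes include Cd74, H2-Aa, H2-Ab1 and H2-Eb1, the class II genes of the next paragraph. For each of these, 10 contrast cells held 36.9% to 49.4% of the contrast UMIs, so their pooled ratios rested in part on few cells.

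The class II genes showed how a summed level and a share of cells can part. Cd74, the invariant chain of class II molecules, was at 53.3 CPM (43.7 to 64.4) in members and 279 CPM (271 to 286) in contrast cells, a ratio of 0.191 (0.157 to 0.232), yet it was detected in 36.1% of members and 19.3% of contrast cells. In the contrast cells, 10 cells held 41.95% of the Cd74 UMIs. H2-Aa, a class II chain, had a ratio of 0.328 (0.266 to 0.4002) and was detected in 40.3% of members and 20.4% of contrast cells. No order of the sets is read from these shares.

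Myeloid transcripts mostly had low ratios. Of 17 counted genes, 12 were at 0.5 or below, none at 2 or above, and the median was 0.4301. With members taken from 1 Dntt UMI, fewer of these genes were at 0.5 or below, and S100a8 changed its side of 1. F13a1, a coagulation factor of monocytes, stood at 48.3 CPM (39.2 to 58.97) against 355 CPM (347 to 363), and Ly6c2, a monocyte surface protein, at 86.7 CPM (74.3 to 101) against 448 CPM (439 to 458). Irf8, the factor of monocyte and dendritic fates, had a ratio of 0.379 (0.345 to 0.416), Cebpa, which directs granulocyte and monocyte fate, one of 0.364 (0.265 to 0.488), and Csf1r, the receptor for macrophage colony-stimulating factor, one of 0.369 (0.262 to 0.506). Csf3r, the receptor for granulocyte colony-stimulating factor, was an exception at 36.9 CPM (28.9 to 46.3) against 26.6 CPM (24.4 to 28.9). Outside the list, the monocyte genes named for a low ratio were Lgals3, a galectin, with 4 UMIs in members, Aif1, a macrophage actin-binding protein, with 1, Klf4, a monocyte transcription factor, with a ratio of 0.123 (0.0704 to 0.201), Ccr2, the receptor for Ccl2, with 0.159 (0.112 to 0.219), Ifi30, a lysosomal reductase, with 0.111 (0.0679 to 0.172), and Ifi209, of the interferon-inducible HIN family, with 0.116 (0.0595 to 0.203).

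Granule transcripts varied widely between members. Prtn3 was at 1188 CPM (1141 to 1237) against 2762 CPM (2739.5 to 2785) and had a UMI in 94.96% of members, whereas Elane, neutrophil elastase, had one in 41.2% and Ms4a3 in 24.4%. Mpo, myeloperoxidase, was at 1328 CPM (1278 to 1379) against 2736 CPM (2713 to 2759). Summed over Mpo, Elane, Prtn3, Ctsg and Ms4a3, the median member had 1181 CPM and the median contrast cell 5981 CPM, against 144.5 CPM in the erythroid reference. In 14 members (11.8%) these 5 genes exceeded 10000 CPM, compared with 320 contrast cells (33.8%) and 89 cells of the erythroid reference (6.89%). Just 10 members accounted for 59.6% of these UMIs, so the pooled ratio of these genes rested on a minority of cells. The myeloid list summed to 5214 CPM in members, 11616 CPM in contrast cells and 1544 CPM in the erythroid reference.

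**Figure D3:**
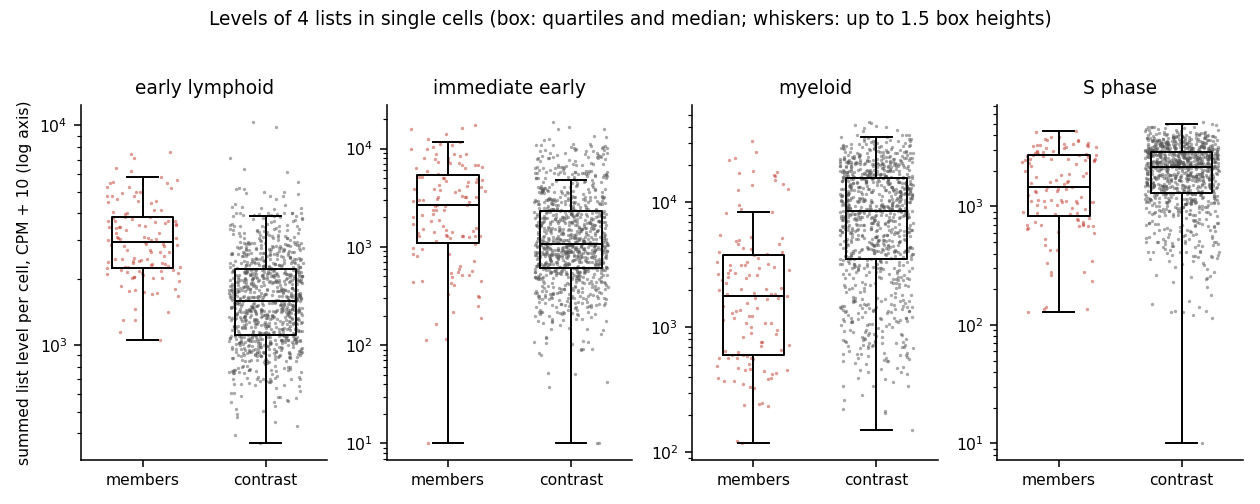
Summed level of 4 gene lists in each cell (CPM plus 10, log axis, 1 point per cell) for members and contrast cells, with boxes at the quartiles and medians and whiskers reaching up to 1.5 box heights. The median member lay above the median contrast cell for the early lymphoid (2928 and 1578 CPM) and immediate early lists (2644 and 1048 CPM) and below it for the myeloid list (1785 and 8469 CPM), with wide overlap in each panel.

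Stem cell genes were split. Of 10 counted, 2 had a ratio of at least 2 and 1 of 0.5 or below, with a median of 1.04. Hoxa9, a homeobox factor of early progenitors, was at 91.7 CPM (78.9 to 106) against 30.97 CPM (28.6 to 33.5), and Ly6a, which encodes Sca-1, at 25.9 CPM (19.4 to 33.98) against 10.3 CPM (9.002 to 11.8). Meis1, the cofactor of Hoxa9, had a ratio of 1.63 (1.39 to 1.89) and Hlf, a factor of stem cell maintenance, one of 1.43 (1.204 to 1.69). Mecom and Procr, both typical of long-term stem cells, had ratios of 1.02 (0.649 to 1.55) and 0.835 (0.391 to 1.59), and Vwf had 4 UMIs in the members and a ratio of 0.351 (0.0942 to 0.925). The Vwf ratio changed its side of 1 with members taken from 1 Dntt UMI and on thinned cells. Summed, the list stood at 378 CPM in members, 249 CPM in contrast cells and 1840.4 CPM in a stem reference of 596 cells with Procr and Hlf UMIs and no Dntt.

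Of 6 counted interferon response genes, 4 had a ratio of at least 2 and none was at 0.5 or below, with a median of 2.397. They were Oasl2, of the family of oligoadenylate synthetases, at 18.9 CPM (13.4 to 25.99) against 5.33 CPM (4.37 to 6.43), Ifi27l2a at 42.9 CPM (34.3 to 52.9) against 16.7 CPM (14.9 to 18.5), Isg15, a ubiquitin-like modifier, at 18.4 CPM (12.98 to 25.4) against 7.64 CPM (6.49 to 8.95), and Xaf1 at 18.4 CPM (12.98 to 25.4) against 7.74 CPM (6.58 to 9.05). Irf9, which carries the interferon signal to the nucleus, had a ratio of 1.29 (0.975 to 1.68). The Isg15 level rested on 37 UMIs, and 1 member held 29.7% of the Isg15 UMIs and 1 held 19.8% of the Ifi27l2a UMIs. The list summed to 185 CPM in members, 104 CPM in contrast cells and 209 CPM in the stem reference.

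Immediate early genes, which respond within minutes to signals or to handling of cells, were higher as a group: 5 of 10 had a ratio of at least 2, none was at 0.5 or below, and the median was 2.15. Nr4a1, an orphan nuclear receptor, was at 32.4 CPM (25 to 41.3) against 7.84 CPM (6.67 to 9.16), Ier3 at 185 CPM (167 to 205) against 63.1 CPM (59.7 to 66.7) and Egr1, a zinc finger factor, at 196 CPM (177 to 217) against 70.4 CPM (66.8 to 74.1). Btg2, which restrains proliferation, had a ratio of 2.66 (2.44 to 2.89) and Junb, a subunit of AP-1, one of 2.32 (2.11 to 2.54), while Fos and Jun lay lower at 1.496 (1.38 to 1.62) and 1.56 (1.48 to 1.64). The list summed to 3030.2 CPM in members, 1640 CPM in contrast cells and 5762 CPM in the stem reference. With the rule and the levels taken on cells thinned to 5000 UMIs, none of these genes was counted as higher, with ratios of 1.86 for Egr1, 1.99 for Btg2, 1.96 for Ier3 and 1.70 for Junb, and Nr4a1, at 2.23, was below the count minimum.

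Cell cycle genes differed little in pooled levels, while the median cell had less of both lists among the members than among the contrast cells. None of 15 S phase genes and none of 15 G2/M genes reached a ratio of 2 or 0.5, and the medians were 0.921 and 0.9897. Mcm5, a subunit of the replicative helicase, was at 149 CPM (133 to 167) against 184 CPM (178 to 189.5), Rrm2, which supplies deoxynucleotides, had the lowest ratio of the S phase list at 0.535 (0.439 to 0.646), and Mki67 stood at 309.5 CPM (286 to 335) against 305 CPM (297 to 312). Per cell, the summed S phase level had a median of 1437 CPM in members and 2138 CPM in contrast cells, and the G2/M level 540.5 and 1042 CPM. Pooled, the S phase sums were 1982 and 2172 CPM and the G2/M sums 1889 and 1926 CPM.

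The genes the study is concerned with, subunits of BAF complexes, Ctcf and cohesin, showed no member past the fold: 0 of 23 in either direction, with a median of 1.15 and a range of 0.665 to 1.69. Brd9 had 65 UMIs in the members, 32.4 CPM (25 to 41.3) against 33.6 CPM (31.1 to 36.2), a ratio of 0.963 (0.735 to 1.24). Ctcf, the insulator protein that holds chromatin loops, was at 171 CPM (154 to 190.5) against 163 CPM (157 to 168). Smarcd1, a subunit that BAF complexes share, had the highest ratio at 1.69 (1.37 to 2.07) and Phf10, of the PBAF form, the lowest at 0.665 (0.507 to 0.858). The list summed to 2326 CPM in members and 2071 CPM in contrast cells.

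Megakaryocyte and erythroid genes had 2 of 12 at 0.5 or below (Pf4 and Epor), none at 2 or above and a median of 0.7896, and summed to 316 CPM in members, 449.7 CPM in contrast cells and 5846 CPM in the erythroid reference. Both low calls changed their side of 1 with members taken from 1 Dntt UMI and on thinned cells, and 10 contrast cells held 72.65% of the contrast Pf4 UMIs. Klf1, a defining erythroid factor, was at 9.97 CPM (6.09 to 15.4) against 9.12 CPM (7.86 to 10.5). All 5 counted mast and basophil genes were at 0.5 or below, with a median of 0.137 and sums of 58.3 and 369.9 CPM. Mcpt8, a basophil protease, was at 23.4 CPM (17.2 to 31.1) against 123 CPM (118 to 128), but 10 contrast cells held 70.3% of its contrast UMIs, and 89.7% of those of Prss34, a further basophil protease with a ratio of 0.0566 (0.0329 to 0.0908). With members taken from 1 Dntt UMI, the Prss34 ratio was 1.40 and the list median 1.30, so this direction rested on few cells.

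Against the B-lineage set, which shares the Dntt threshold, the members had more of some transcripts of early and myeloid cells. The myeloid list summed to 5214 CPM in members and 2474 CPM in the B-lineage set, and the stem cell list to 378 and 290 CPM. The megakaryocyte and erythroid list went the other way at 316 and 1060 CPM, as did the mast and basophil list at 58.3 and 966 CPM. Doublet calls were 6 (10.9%) in the B-lineage set and 6 (5.04%) in the members. Hlf was at 79.2 CPM in members and 22.2 CPM in the B-lineage set, a ratio of 3.56 (2.16 to 6.27), and Cd34 at 404 and 144 CPM, a ratio of 2.81 (2.297 to 3.46). Csf3r was at 36.9 CPM and 1 UMI was found in the B-lineage set, a ratio of 28.2 (4.91 to 1129), and Mpo was at 1328 and 380.5 CPM. Wfdc17 and Ccl3 were higher in the members with ratios of 5.69 (3.32 to 10.6) and 3.11 (2.37 to 4.13), while the ratio for Ccl4 had 1 in its interval at 0.926 (0.784 to 1.097) and that for Cd69 was 0.656 (0.589 to 0.732). These ratios come from sets split by Ebf1, Rag1 and Vpreb3, and describe the split.

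The reverse held for transcripts of the B-cell path. Ighm was at 268 CPM in members and 3869 CPM in the B-lineage set, Ly6d at 3.49 and 982 CPM, Il7r at 3.99 and 243 CPM, and Jchain at 0.997 and 1114 CPM. Myl10 was at 16.9 and 323 CPM and Rag2 at 4.49 and 39.2 CPM. Flt3 and Satb1 differed less, with ratios of 0.739 (0.626 to 0.875) and 0.745 (0.627 to 0.887), and the interval for Tespa1 included 1 at 0.868 (0.684 to 1.11). The early lymphoid list summed to 2922 CPM in members, 10266 CPM in the B-lineage set and 4289 CPM in the plasmacytoid set.

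Against the plasmacytoid set, the members had less Irf8 (235 and 794 CPM, ratio 0.295 (0.266 to 0.328)), less Ly6d (3.49 and 329.5 CPM) and less Il7r (3.99 and 66.6 CPM). They had more Hlf, with a ratio of 3.68 (2.599 to 5.33), more Mpo, with 2.39 (2.23 to 2.57), more Ccl3, with 1.64 (1.41 to 1.899), and more Kit, with 1.72 (1.38 to 2.14). Flt3 and Tespa1 had intervals that included 1, at 0.928 (0.809 to 1.06) and 1.11 (0.913 to 1.35). The ratios against the plasmacytoid set come from sets split by Cox6a2, Upb1 and Siglech, and describe the split. Compared with the stem reference, the members had less Hlf (79.2 and 416 CPM) and Mecom (12.5 and 131 CPM) and more Satb1 (ratio 13.5 (10.8 to 16.9)), Flt3 (8.97 (7.47 to 10.8)), Ighm (10.8 (9.08 to 12.9)) and Ccl3 (15.6 (12.7 to 19.4)). Tox, high against the contrast cells, was at 27.4 CPM in members and 36.7 CPM in the stem reference, and Gimap6 at 87.2 and 95.8 CPM.

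The members were not uniform. They were divided by Dntt into 46 cells with 2 to 3 UMIs, 23 with 4 to 7 and 50 with 8 or more, whose median depths were 15947, 15218 and 13649.5 UMIs, so the cells with most Dntt were not the deepest. The division uses the gene of the rule and is a description. Satb1 was at 143 CPM (118 to 171), 183 CPM (143 to 232) and 256 CPM (223 to 294) in the order of rising Dntt, and Flt3 at 151 CPM (126 to 181), 191 CPM (149.8 to 240.3) and 276 CPM (241 to 314). Tespa1 showed no such order, at 118 CPM (95.3 to 144), 115 CPM (83.7 to 155) and 111 CPM (89.5 to 136). Sox4 was higher in cells with 8 or more Dntt UMIs than in those with 2 to 3 by a ratio of 1.499 (1.32 to 1.701), and the early lymphoid list summed to 2446, 2552 and 3562 CPM.

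Of the 18 counted early lymphoid genes, 10 were higher in the group with most Dntt than in that with least by an interval above 1, none was lower, and 8 had 1 in the interval. The share over all genes was not computed for this division, so the count has no background. Lists without a lymphoid theme also rose: 4 of 23 BAF and CTCF genes and 3 of 6 interferon response genes were higher, and none was lower. Ighm was at 179 CPM (151 to 210.3) in the lowest and 387 CPM (346 to 432) in the highest group, and Notch1 at 43.4 CPM (30.2 to 60.4) and 105 CPM (84.02 to 129.7). Tox was at 11.2 CPM (5.11 to 21.2) and 51.3 CPM (36.97 to 69.3), seen in 9 of 46 and 16 of 50 cells. Ets1 had 3 UMIs in the lowest and 31 in the highest group, a ratio of 10.2 (3.17 to 52.01). Ccr9, the chemokine receptor that guides progenitors to the thymus and gut, had 4 UMIs in 1 cell of the lowest group, none in the middle group and 35 in 8 cells of the highest, of which 1 cell held 19. Other lymphoid genes had 1 in their intervals, with ratios of 0.985 (0.626 to 1.55) for Il2rg, 1.18 (0.625 to 2.25) for Lck and 0.844 (0.357 to 1.97) for Lax1, and Ly6d had 4 UMIs in the lowest and 3 in the highest group. Of the 8 Il7r UMIs, 7 lay in 5 cells with 8 or more Dntt UMIs, and 1 in a cell with 2 to 3.

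**Figure D4:**
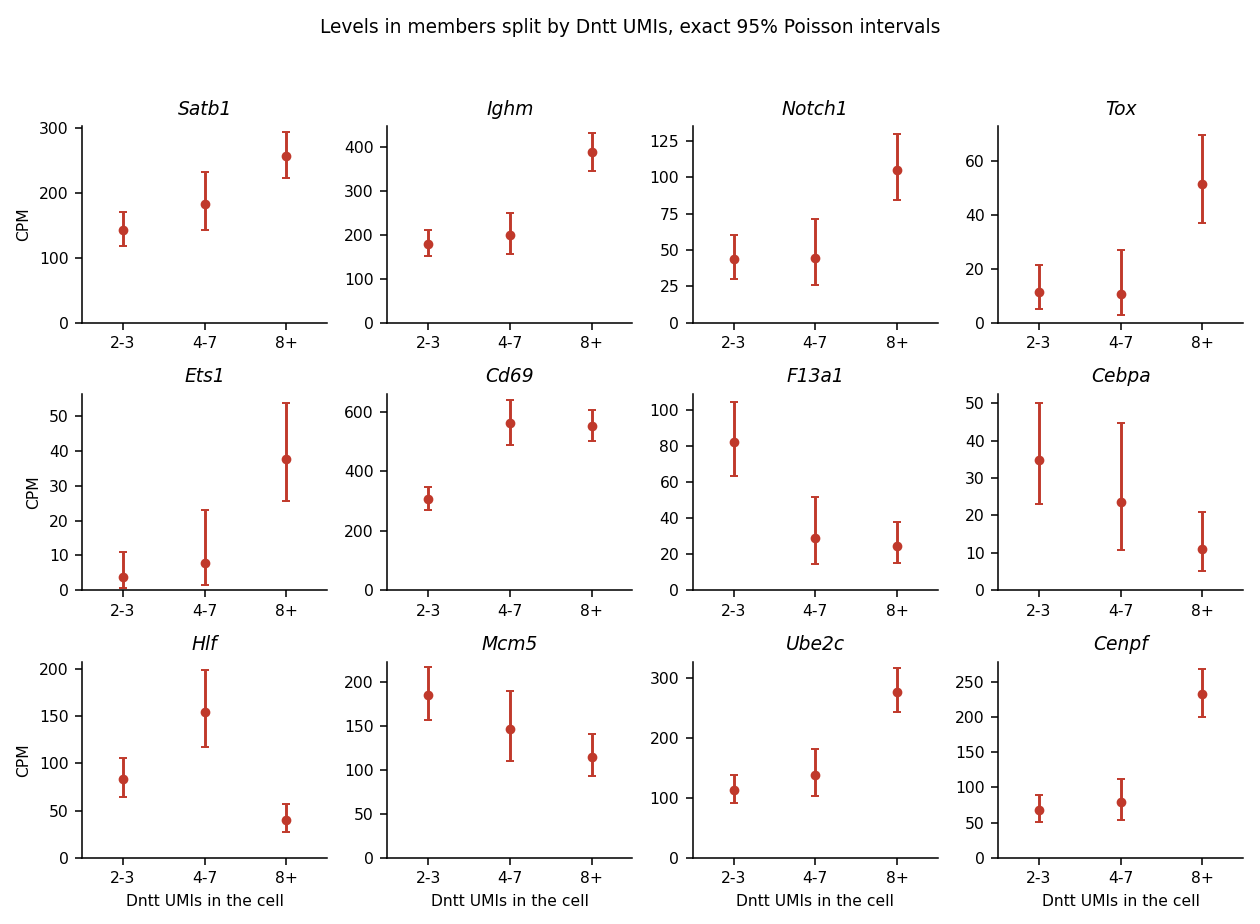
Summed level in CPM (linear axis from 0) of 12 genes in members with 2 to 3, 4 to 7 and 8 or more Dntt UMIs, with exact 95% Poisson intervals as bars. Satb1, Ighm, Notch1, Tox and Ets1 were higher in the group with most Dntt than in that with least, F13a1 and Cebpa were lower, and Hlf was highest in the middle group.

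Of the 17 myeloid genes, 8 were lower in the group with most Dntt by an interval below 1, 2 were higher and 7 had 1 in the interval. This count also lacks a share over all genes for the division. F13a1 was at 81.9 CPM (63.3 to 104) in cells with 2 to 3 Dntt UMIs and 24.4 CPM (14.9 to 37.7) in those with 8 or more, Cebpa at 34.7 CPM (23.1 to 50.2) and 10.99 CPM (5.03 to 20.9), Ly6c2 at 135 CPM (111 to 163) and 48.9 CPM (34.9 to 66.5), and Ccr2 at 38.5 CPM (26.1 to 54.6) and 6.11 CPM (1.98 to 14.2). The difference was smaller for Prtn3, with a ratio of 0.578 (0.527 to 0.635), and the interval for Elane included 1, with a ratio of 1.01 (0.913 to 1.12). Ms4a3 and Cebpe, both of granulocyte precursors, had higher pooled levels in the group with most Dntt, with ratios of 1.33 (1.01 to 1.75) and 2.27 (1.04 to 5.33). Shares of cells ran the other way. Ms4a3 was detected in 17 of 46 cells of the lowest and 8 of 50 of the highest group, and Cebpe in 4 and 2, so these ratios rested on few cells. Irf8, Csf1r, Csf3r and Fcgr3 had ratios of 0.971 (0.797 to 1.18), 1.1 (0.542 to 2.25), 1.02 (0.568 to 1.85) and 1.16 (0.481 to 2.87). Outside this list, Hlf was highest in the middle group at 154 CPM (118 to 199), against 83.1 CPM (64.4 to 106) and 40.3 CPM (27.8 to 56.6). The myeloid list summed to 6200.3, 4807 and 4433 CPM.

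In the same division, 7 of 15 S phase genes were lower and none higher in the group with most Dntt, and 8 of 15 G2/M genes were higher and none lower. Here too no share over all genes was computed, and the intervals behind these counts leave out differences between cells. The S phase sum was 2234, 1989.7 and 1729.5 CPM, and the G2/M sum 1502, 1644 and 2384 CPM. Mcm5 was lower in the cells with most Dntt by a ratio of 0.621 (0.475 to 0.809), whereas Ube2c, a ubiquitin ligase enzyme of mitosis, and Cenpf, a kinetochore protein, were higher by 2.46 (1.92 to 3.17) and 3.401 (2.51 to 4.68). The share of cells with a Ube2c UMI was 39.1% in the lowest and 48% in the highest group, and of Cenpf 43.5% and 48%. Of all the members' UMIs, 1 member held 9.97% for Ube2c and 1 held 15.3% for Cenpf. The immediate early sum was 2784, 3709.7 and 2956 CPM.

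Single UMIs of lymphoid and granule genes could lie in the same member, as the separate detection rates already give. Satb1 was detected in 88.2% of members and in 89.8% of the 49 members with an Elane UMI, and in 58.3% of contrast cells and 60.2% of those with Elane, so Satb1 detection was much the same with Elane as in the whole set. Lck was detected in 31 members and Tox in 29, and 13 had both. The 6 members with an Il7r UMI, deeper than the rest at a median of 23806.5 against 14808 UMIs, had Satb1 in all 6 cells, Ighm in all 6, no Ly6d and Ets1 in 3. These shares were not thinned, and free RNA can give granule gene UMIs to cells that do not express them. Mpo was seen in 80.7% of members and 73.9% of the deeper erythroid reference, and after thinning in 63.9% and 28.6%.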

How the data were processed

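The deposited values are raw UMI counts, which the authors made with Cell Ranger 6.0.2 and mm10, per the matrix header and the submitters' processing notes, from 1 library of the 10x Chromium type. They are not normalized and hold the called barcodes before the filter on cells. The sample labels also describe a bulk RNA kit, which the form of the values does not match. No row lacks a gene. The knockout library is not used here.

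Cells were held to the study's limits, which are UMIs above 1000 and below 50000, detected genes above 1000 and below 6500 and a mitochondrial share below 7%. This kept 7645 of 8817 barcodes, with 1592 to 49991 UMIs each and 151852381 in all. Scrublet, run through scanpy 1.11.5 with 6% doublets assumed, called 268 doublets (3.51%), which were kept in the main analysis. Levels, ratios and intervals at 95% were computed in Python 3.11.15 with numpy 2.4.6, pandas 2.3.3 and scipy 1.17.1, and figures with matplotlib 3.10.9. Genes with at least 100 UMIs over both sets were counted as higher from a ratio of 2 and lower from 0.5, whatever the interval. The ratio of 237 of the former and 277 of the latter kinds had an interval that left out 1. Where a count is 0, the level of 3 UMIs serves as the floor. Cells were thinned without replacement to 5000 UMIs, which left out 99 of the cells kept. Contrast cells and the reference sets can share cells.

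Named genes were the 12 highest and 10 lowest ratios (5 CPM added to both levels, without rule genes, mitochondrial and ribosomal protein genes and symbols that start with Gm and a digit, AC or AL and a digit, or end in Rik) and 15 gene lists: recombination and end joining, early lymphoid, B lineage, T and innate lymphoid, plasmacytoid dendritic, conventional dendritic, myeloid, stem cell, megakaryocyte and erythroid, mast and basophil, S phase, G2/M, BAF complexes and CTCF, interferon response, and immediate early. The members and lists were chosen with earlier results of these data known. Kit, Ptprc, Il1r1 and the other Gimap genes were added after their values were seen. Some genes of the lists are counted but not reported here by name. All 244 genes were found in GENCODE M21 on GRCm38, and 51 of them share same-strand sequence with a second gene, where reads may be split or dropped. Promoters were found for 11 of 15 genes looked up, and the motifs were also chosen after values were seen.

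The ratio step was tested on simulated counts of the members against the contrast cells with 100 genes raised 4-fold, 100 lowered to 0.25 and 9397 unchanged. The calls were right for 100% and 99% of them and for 99.3% of unchanged genes, and 94%, 93% and 95.5% of intervals held the true ratio. Alternatives were a stricter filter (at least 5000 UMIs and under 5% mitochondrial), removal of doublet calls, other limits on Dntt and B-lineage genes, other contrast cells, thinned cells, other totals and scalings, other count minimums and 3 settings chosen after seeing the data.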

Additional observations from a re-analysis of the deposited data

Results flagged for a closer look

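Outside the cell filter, 8 barcodes met the same rule on the 7 transcripts, 0.683% of the 1172 barcodes left out, where 3 barcodes would be 0.256%. They are noted because the comparisons did not use them and a signal was present. Their mitochondrial share was too high in 5, their UMIs in 3 and their gene number in 2, and 1 had too few genes, with several limits failed by some. Depth ran from 1883 to 66837 UMIs with a median of 12292.5. Dntt had 50 UMIs in them, 237 CPM (176 to 312), against 570.1 CPM in the members, which is fixed in part by the rule. Satb1, which the rule did not use, was detected in 7 of the 8 and stood at 114 CPM, against 197 CPM in the members and 57.2 CPM in the contrast cells. Depth, gene number and mitochondrial share moved with this choice by the filter itself, and their part in these levels was not tested.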

How the results depend on the processing

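Of 114 values of the main counts and shares under 16 alternatives, 95 moved by less than 1.5 times or stayed in their interval and 19 moved further. With Dntt at 1 or more, 241 cells (3.15%) met the rule, 181 genes were lower, 5 myeloid genes were lower and 2 immediate early genes higher. Dntt at 3 or more gave 1.11% of cells. Requiring 6 more B-lineage genes at 0, Cd79b among them, left 70 cells (0.916%) and 377 higher genes. On thinned cells the members were 1.17%, with 34 genes higher, 59 lower, 3 conventional dendritic genes lower and 0 immediate early genes higher, at fewer UMIs and so fewer genes over the minimum. With a minimum of 30 UMIs, 574 genes were higher and 589 lower, and with one of 300, 82 and 131, with 3 early lymphoid genes higher. Of 924 values of the 66 gene ratios past the fold, 906 kept their side of 1 and 18 changed it. With Dntt at 1 or more these were Prss34 at 1.40, S100a8 at 7.86, Vwf at 1.40, Epor at 2.24, Pf4 at 2.42, Mcpt8 at 1.40, Ms4a2 at 1.22 and Fcer1a at 1.30, and the mast and basophil median was 1.30. With contrast cells that lacked the 6 rule genes they were Ly6d at 3.39, Cd7 at 2.58 and Itgax at 1.15, and when members also had Flt3 and Cd34, a setting chosen after seeing the data, the Ly6d ratio was 3.102, the Cd7 ratio 2.76 and the Itgax ratio 1.23. On thinned cells they were Ly6d at 3.06, Vwf at 1.10, Epor at 1.47 and Pf4 at 2.15. The cause was not tested beyond the settings' own construction. No paired analysis was possible because there is 1 sample and no test. Depth limits the members to a floor of 1.495 CPM for 3 UMIs.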

Other observations

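Some genes with a ratio past the fold lay beside each other. Of the 237 higher genes, 34 (14.4%) had another higher gene within 100 kb, and of the 299 lower genes, 47 (15.7%) had a lower one, with no comparison to other gene sets made. The longest run of higher genes covered chromosome 6 from 48589445 to 48754210 (GRCm38) and held Repin1, Gimap9, Gimap6, Gimap1, Gimap5 and a predicted gene, where the annotation overlaps Gimap1 and Gimap5 with a further transcript. On chromosome 17 between 35424850 and 35474563, the class I genes H2-Q6, H2-Q7 and H2-Q10 had ratios of 2.101, 2.07 and 3.41, and reads of these similar genes may be split between them. Ltb and Tnf, neighbouring cytokine genes on chromosome 17 that encode lymphotoxin beta and tumour necrosis factor, had ratios of 3.46 (2.61 to 4.55) and 3.37 (2.44 to 4.597). Gpr171 and P2ry14, adjacent receptor genes on chromosome 3, had ratios of 2.83 (2.43 to 3.29) and 3.31 (2.54 to 4.28), and P2ry14 was at 39.9 CPM in members and 12.03 CPM in contrast cells.

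Among lower genes, 6 of the Ms4a family lay together on chromosome 19 from 11404770 to 11640851, with Ms4a6b at a ratio of 0.388 (0.289 to 0.512) and Ms4a6c at 0.233 (0.201 to 0.267). The calcium-binding genes S100a4, S100a6 and S100a8 lay on chromosome 3 from 90603771 to 90670035. S100a4 was at 18.4 CPM in members and 96.6 CPM in contrast cells, and S100a6 at 29.9 and 138 CPM. These genes were picked for their position among genes past the fold after their values were seen.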
